A study of Saccharomyces cerevisiae with 9 samples.

Results

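Early log and late log are the first and the last of the 3 subphases into which the study divided exponential growth of budding yeast, and they were compared here gene by gene. The libraries were chosen by their titles, which gave 3 early log and 3 late log libraries out of the 9 mRNA-seq libraries of the series, each with counts for the same 7127 genes. All 6 cultures were MATa cells called wild type, with the markers ade2-1 and ura3-1, then trp1-1 and the paired leu2-3 and leu2-112 mutations, then his3-11 and can1-100. They also shared a tagged copy of RPA135, the gene of the second-largest RNA polymerase I (Pol I) subunit, written RPA135-(HA)3-(His)7::TRP1, so that no library came from a strain without the tag. Cultures grew in YPD, a rich medium with glucose, at 30°C with nutation, and were harvested at an optical density (OD600) of 0.2 to 0.3 for early log and 0.8 to 1.0 for late log. For early log the subphase is elsewhere defined as 0.25 to 0.4, so the range differs between parts of the study's text. An early log sample, named there by a letter and not by a replicate number, is described as deviating from its replicates. The study places that sample at the upper limit of the early log range. The density of each single culture was not used here. The comparison asks how far mRNA levels move between the ends of what is often treated as 1 growth phase.

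A fast-growing yeast cell spends much of its transcription on ribosomes: Pol I makes the ribosomal RNA, a large set of nucleolar assembly factors cuts, folds and modifies it, and ribosomal proteins bind it. Genes of assembly factors often carry the PAC and RRPE motifs in their promoters, which the repressors Dot6, Tod6 and Stb3 bind, while ribosomal protein genes answer to Rap1, Ifh1, Fhl1 and Sfp1. When glucose or nitrogen becomes short, signalling through TORC1 and protein kinase A drops, ribosome production is turned down, and genes of stress defence, reserve carbohydrates, high-affinity sugar uptake and respiration are turned on.

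Each library held between 22830165 and 28426592 counts on genes, with the 10 most abundant genes accounting for 10.01% to 15.7% of them in early log libraries and 18.2% to 19.1% in late log libraries. Early log 3 stood apart from early log 1 and 2: the median absolute difference in log2 CPM, the count scaled to library size, was 0.0868 between early log 1 and 2, 0.383 between early log 1 and 3, and 0.144 to 0.206 among the late libraries. Early log 3 was also sequenced in run 3 together with late log 1, 2 and 3, whereas early log 1 and 2 came from run 1, so run and subphase overlapped except in that library. Late log was therefore compared with early log in a fit of the 6 libraries and again with the run as a term, in which early log 3 alone carries the contrast. With the run term, p-values leave out the spread between early log 3 and early log 1 and 2. A gene called in the same direction in both fits is said below to hold in early log 3. In these bulk libraries a fall in relative mRNA level cannot be told apart from a rise of other mRNAs, nor fewer cells of a kind from less RNA per cell.

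Of 5954 genes tested with edgeR (quasi-likelihood, adjusted p of at most 0.05), 4294 or 72.1% differed, 1963 higher (33.0%) and 2331 lower (39.2%) in late log. At 2-fold or more, 1032 genes (17.3%) were higher and 1740 (29.2%) lower, so large changes were more often falls. The 3 late libraries lay wholly above the 3 early ones for 2157 genes (36.2%) and wholly below them for 2415 genes (40.6%), so that the groups did not overlap for 76.8% of genes. With run as a term 71.3% of genes passed, 1931 higher (32.4%) and 2316 lower (38.9%). In early log 3, 1702 of the genes that rose (86.7%) and 2084 of those that fell (89.4%) held, which together were 63.6% of genes tested, and 1 gene that fell (0.0429%) was called in the opposite direction. Both fits use early log 3 and the same late libraries, so these shares are not independent support. Early log 3 lay outside the range of the late libraries for 89.8% of genes. Among the changes of 2-fold or more, 95.4% of the rises and 92.5% of the falls held. A fit that takes in the mid log libraries together with the run term called far fewer genes, 724 higher (12.0%) and 728 lower (12.1%).

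The scale of all values rests on TMM normalization, which assumes that most genes do not change. With library totals alone, the median log2 fold change over all genes moved from -0.08 to -0.68, with 839 genes higher (14.1%) and 3291 lower (55.3%), and list medians below are on the TMM scale unless library totals are named. ACT1, the actin gene often used as a reference, had 2729.9, 2820 and 2893 CPM in early log 1, 2 and 3 and 4897, 5372 and 5113 CPM in late log 1, 2 and 3. All late libraries were above all early ones, a log2 fold change of 0.87 ± 0.12 (SE), which came to 0.27 and did not pass with library totals. The tagged gene RPA135 had 552, 585 and 439 CPM in early and 699, 599 and 603 CPM in late log, and its difference of 0.27 ± 0.15 did not pass the test (edgeR adjusted p = 0.13), although it did with run as a term (0.53). Values in brackets after a gene's levels are such log2 fold changes with their SE.

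Genes that fell shared features of their own sequence that the comparison did not use, and the lists below differ in them. Across 5621 protein-coding genes, the log2 fold change was lower the more A the sense strand held between start and stop codon (Spearman's rho across genes -0.659) and the longer the gene (rho -0.372). In the decile of genes with the least A (16.1% to 27.6%), 68.2% rose and 3.73% fell, with a median log2 fold change of 0.82. In the decile with the most A (36.9% to 47.4%), 5.52% rose and 76.3% fell, with a median of -1.81. By length, the shortest decile had a median of 0.89 and the longest -0.85. The same slope with A content was seen over early log 3 alone (rho -0.597), and a weaker one between early log 3 and early log 1 and 2 (rho -0.39), so A content also separates replicates of 1 subphase. Genes are not independent points, and the libraries behind these values are shared.

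**Figure D1:**
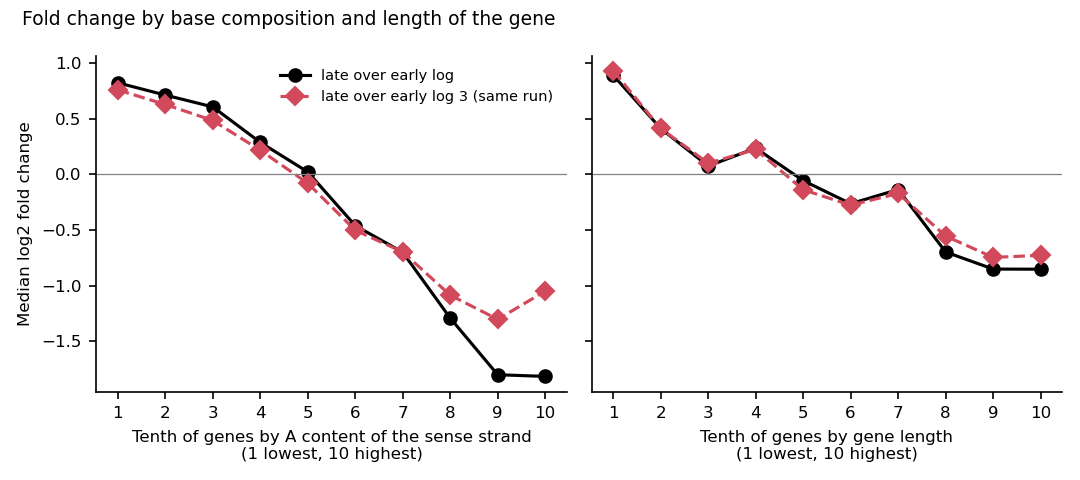
Median log2 fold change of late over early log (black circles) and of late over early log 3, from the same sequencing run (red diamonds), over deciles of the 5621 protein-coding genes ranked by the percentage of A in the sense strand (left) or by gene length (right). Medians run from 0.82 in the decile with the least A to -1.81 in the decile with the most, and from 0.89 in the shortest to -0.85 in the longest decile.

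The contrast can be read in some of the genes themselves. For genes picked to illustrate it, the stretch of 60 bases with the most A is shown here, sense strand, 5′ to 3′, with A in capitals. Lysine and glutamate codons are rich in A, and proteins that bind ribosomal RNA in the nucleolus often carry runs of these residues. For the assembly factor genes NOP7 and CBF5, which fell, the stretches lie at chrVII:696336-696395, plus strand, 41 A of 60 bases, and at chrXII:507432-507491, plus strand, 41 A of 60 bases (genome build R64).

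NOP7: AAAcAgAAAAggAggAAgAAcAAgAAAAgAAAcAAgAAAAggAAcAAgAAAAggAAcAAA

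CBF5: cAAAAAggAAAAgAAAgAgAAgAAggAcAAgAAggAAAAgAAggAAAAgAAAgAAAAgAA

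For TDH1 and ADH1, enzymes of glycolysis and fermentation that rose, they lie at chrX:338447-338506, plus strand, 22 A of 60 bases, and at chrXV:160478-160537, minus strand, 25 A of 60 bases.

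TDH1: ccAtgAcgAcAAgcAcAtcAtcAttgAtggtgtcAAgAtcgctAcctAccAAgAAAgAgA

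ADH1: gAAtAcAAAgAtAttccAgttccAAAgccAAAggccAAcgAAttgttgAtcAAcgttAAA

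Over the whole gene, A made up 37.2% of NOP7 and 33.7% of CBF5 but 25.1% of TDH1 and 23.7% of ADH1. Among the 10 largest rises of named genes, A ran from 23.1% (HXT6) to 33.7% (EGO4). Among the 10 largest falls it ran from 30.7% (ANP1) to 37.2% (NOP7), so the ranges overlapped. To see which functions stood out beyond this slope, the trends with length and A content were removed from each library and the fits repeated, with and without the run term. Trends removed, 1224 genes (20.6%) were higher and 1910 (32.1%) lower. With the A content trend alone removed, 1285 (21.6%) were higher and 2242 (37.7%) lower. With both trends removed and run as a term, 1172 (19.7%) were higher and 2102 (35.3%) lower. Of the genes that rose, 41.5% still passed in the same direction and 6.98% passed in the opposite one. Of those that fell, 58.0% passed in the same direction and 4.5% in the opposite one. With the run term added, 37.1% of the rises and 55.6% of the falls passed in the same direction. In all 4 fits, 615 genes (10.3%) were higher and 1200 (20.2%) lower. Since genes of 1 function can share codon usage and length, this step can take away a change of function as well as one of base composition, and which of these it took was not tested.

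Ribosome assembly was among the deepest falls. Of 63 tested genes of the small subunit processome, the particle that cuts and folds the 18S part of the ribosomal precursor, 49 were lower and 2 higher, against 39.2% and 33.0% of all genes, and their median log2 fold change was -2.13. Of 74 assembly factors of the large subunit, 63 were lower and 3 higher, with a median of -2.03. Most of these falls held in early log 3, 45 and 55, although the medians over that library, -1.44 and -1.28, were closer to 0 than over early log 1 and 2, -2.38 and -2.25. The genes of both lists were rich in A, with median contents of 35.4% and 35.1% against 32.7% over all genes. With the trends removed the medians were -0.76 and -0.75 beside -0.13 for all genes, and 31 and 35 genes were lower in all 4 fits, 49.2% and 47.3% of the lists beside 20.2% of all genes.

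NOP7 (YGR103W), a factor of large subunit maturation, had 199, 194 and 49.98 CPM in early log 1, 2 and 3 and 6.01, 5.51 and 6.33 CPM in late log 1, 2 and 3. Early log 1 and 2 were the highest, early log 3 lay between, and no early value came near a late one, a log2 fold change of -4.63 ± 0.54 (SE; edgeR adjusted p = 0.00027), or -3.07 over early log 3 and -2.58 with the trends removed. MAK21 (YDR060W), which acts early on the same subunit, had 123, 109 and 25.3 CPM in early and 3.41, 4.21 and 4.37 CPM in late log, the same order with early log 3 in between (-4.42 ± 0.60). CBF5 (YLR175W), the pseudouridine synthase of box H/ACA particles, which modify ribosomal RNA, had 199.9, 177 and 56.7 CPM in early and 5.45, 5.56 and 6.86 CPM in late log and fell by 24.2-fold. On the small subunit side, MPP10 (YJR002W) had 119, 113 and 62.98 CPM in early and 5.25, 4.16 and 5.505 CPM in late log, with all late values below all early ones and a log2 fold change of -4.30 ± 0.29. UTP5 (YDR398W), part of the subcomplex that binds the precursor first, had 101, 104 and 61.1 CPM in early and 5.71, 3.62 and 6.03 CPM in late log (-4.11 ± 0.29), and its fall was nearly the same with the trends removed, -3.93. A few members went the other way: EMG1, a methyltransferase of 18S rRNA, had 171 to 181 CPM in early log and 280.0 to 324 CPM in late log (0.78 ± 0.10). SNU13, a protein shared with the spliceosome, had 502 to 729 CPM in early log and 1056 to 1112 CPM in late log (0.74 ± 0.16). Trends removed, their values were -0.14, which did not pass, and -0.67, which was called lower. DBP2, an RNA helicase, rose by 0.62 on the log2 scale (0.27 with the trends removed, where it did not pass) and held in early log 3, whereas the rise of RSA4, a factor of large subunit maturation, by 0.81 did not hold.

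The promoters of NOP7, CBF5 and MPP10 are printed because each holds both PAC and RRPE within 250 bases before to 50 bases after the first base of the start codon. The PAC core was searched as GATGAG and the RRPE core as AAAATTTT, on both strands, and matches are in capitals, with 3 overlapping PAC matches run together in NOP7. The windows, read from genome build R64 on the gene's strand, are chrVII:695167-695466, plus strand for NOP7; chrXII:505884-506183, plus strand for CBF5; and chrX:438615-438914, plus strand for MPP10.

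NOP7: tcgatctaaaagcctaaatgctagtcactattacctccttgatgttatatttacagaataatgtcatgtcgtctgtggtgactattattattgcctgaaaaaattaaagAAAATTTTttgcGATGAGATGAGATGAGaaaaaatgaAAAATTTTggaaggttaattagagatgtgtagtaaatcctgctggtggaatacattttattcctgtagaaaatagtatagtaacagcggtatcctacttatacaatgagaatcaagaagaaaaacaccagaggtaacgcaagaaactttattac

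CBF5: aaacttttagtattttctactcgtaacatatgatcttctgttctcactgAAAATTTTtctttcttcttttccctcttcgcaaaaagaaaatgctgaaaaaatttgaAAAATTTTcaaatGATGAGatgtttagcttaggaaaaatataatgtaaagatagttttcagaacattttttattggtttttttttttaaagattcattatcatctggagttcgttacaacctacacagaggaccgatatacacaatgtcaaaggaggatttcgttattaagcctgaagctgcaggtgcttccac

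MPP10: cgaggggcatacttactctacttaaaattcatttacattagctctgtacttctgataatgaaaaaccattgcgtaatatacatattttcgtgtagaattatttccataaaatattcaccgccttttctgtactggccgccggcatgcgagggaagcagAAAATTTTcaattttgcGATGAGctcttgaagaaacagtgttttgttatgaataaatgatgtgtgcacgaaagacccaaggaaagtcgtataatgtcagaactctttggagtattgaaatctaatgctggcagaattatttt

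The PAC core stood in 90.5% of the promoters of the small subunit processome list and 89.2% of those of large subunit assembly factors, against 19.9% of all 5621 promoters, and the RRPE core in 73.0% and 78.4%, against 9.34%. Promoters of ribosomal protein genes held them in 10.9% and 6.52%. Over all genes tested, 259 promoters held both motifs, and 61.4% of their genes fell and 16.6% rose, with a median log2 fold change of -1.09. Outside the 2 assembly lists, 165 genes had both motifs, with 49.7% lower, 23.6% higher and a median of -0.42, while the 4239 genes with neither had 39.9% lower, 32.2% higher and a median of -0.11. After the trends were removed the median of all 259 genes was -0.38, beside -0.16 for genes with neither motif. For the 165 genes outside the assembly lists it was then -0.22, and 60 of them were lower and 29 higher, against 1401 and 790 of the 4239 with neither, so little of the difference remained there.

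The factors that control these genes were lower as well. Of 9 tested transcription factors of ribosome genes, 8 were lower, all 8 of them held in early log 3, and 6 were lower in all 4 fits. The fallen factors included repressors as well as activators. TOD6, a repressor that binds PAC, had 85.9, 86.9 and 54.3 CPM in early and 7.23, 5.78 and 7.56 CPM in late log (-3.46 ± 0.23). Its paralog DOT6 had 165, 179 and 319 CPM in early and 33.1, 24.5 and 46.1 CPM in late log, with early log 3 the highest of all, and its fall was larger over that library (-3.20) than in the fit of all 6 (-2.68). SFP1, an activator of both ribosomal protein and assembly genes, had 56.4, 60.5 and 68.1 CPM in early and 12.99, 12.5 and 16.5 CPM in late log (-2.14 ± 0.15). STB3, the repressor that binds RRPE, had 6.53 to 18.8 CPM in early log and 2.65 to 3.19 CPM in late log (-2.30 ± 0.40), and the ribosomal protein activators FHL1 and IFH1 were lower too. FHL1 had 5.26 to 13.9 CPM in early log and 1.17 to 1.704 CPM in late log (-3.01 ± 0.43). IFH1 had 10.8 to 28.1 CPM in early log and 6.29 to 6.802 CPM in late log (-1.70 ± 0.35). IFH1 has the highest A content of these genes, 39.3%, and its log2 fold change moved from -1.70 to -0.02 with the trends removed. RAP1, a general factor of ribosomal protein genes, and HMO1, a high-mobility group protein of rDNA and ribosomal protein promoters, fell by 2.32-fold and 2.502-fold, while CRF1, a corepressor, was at 1.24 to 1.65 CPM and did not pass the test.

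Ribosomal protein genes did not follow the assembly factors. Of 138 genes, 55 were higher and 16 lower, and the median log2 fold change was 0.43, or -0.16 with library totals. The 2 kinds of early library disagreed in size: over early log 1 and 2 the median was 0.24, over early log 3 it was 0.92, and with run as a term 110 genes were called higher. With the trends removed, 34 were higher and 40 lower, and the median was -0.18, so the direction of the list as a whole depends on the setting. Single genes of the list moved far in both directions. RPL23B had 2327, 2193 and 1393 CPM in early and 6008, 5731 and 5916 CPM in late log, early log 3 being the lowest library of all, and rose by 2.99-fold. RPS27B had 1897, 1929 and 1191 CPM in early and 4529, 4602 and 4288 CPM in late log and rose in all 4 fits (1.42 ± 0.21). RPL24B had 1595, 1521 and 888 CPM in early and 218, 124 and 303 CPM in late log, and every late value was below every early one (-2.63 ± 0.37). RPL19A had 1701, 1562 and 869 CPM in early and 289, 196 and 348 CPM in late log, again with groups apart (-2.31 ± 0.32).

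Other parts of the translation machinery were split. Of 17 subunits found only in RNA polymerases I or III, 7 were lower and 2 higher. RPA43, the Pol I subunit that contacts the initiation factor Rrn3, had 76.3, 70.9 and 57.8 CPM in early log 1, 2 and 3 and 3.11, 1.78 and 4.28 CPM in late log 1, 2 and 3. Its groups were far apart, a log2 fold change of -4.47 ± 0.31. RPA34 had 73.97, 66.9 and 60 CPM in early and 10.3, 7.34 and 13.4 CPM in late log (-2.69 ± 0.23). The small subunits RPA14 and RPA12 were higher in late log. RPA14 had 59.9 to 70.4 CPM in early log and 149 to 199 CPM in late log, and RPA12 had 72.96 to 109 CPM in early log and 162 to 182 CPM in late log. Trends removed, RPA14 did not pass (-0.02) and RPA12 was called lower (-0.49). Of 29 tRNA modification genes, 21 were lower and 3 higher, and 20 of the falls held in early log 3. TRM1, which methylates a guanosine of many tRNAs, had 98.4, 90.8 and 101 CPM in early and 6.67, 6.21 and 10.2 CPM in late log, with early log 3 as high as its replicates and a log2 fold change of -3.64 ± 0.21. Of 19 aminoacyl-tRNA synthetases, 7 were lower (36.8%) and 5 higher (26.3%), beside 39.2% and 33.0% of all genes. The falls included CRS1 for cysteine (-3.78 ± 0.29) and TYS1 for tyrosine (-1.68 ± 0.25), and the rises THS1 for threonine (0.67 ± 0.12). Of 38 translation factors, 15 were higher (39.5%) and 14 lower (36.8%), both near the shares of all genes. The translation factors had a median of 0.01 (-0.58 with library totals), and 3 were higher and 11 lower with the trends removed. RPG1, a subunit of initiation factor eIF3, had 317, 309 and 34.5 CPM in early and 28.5, 26.3 and 30.5 CPM in late log. Early log 3 was next to the late libraries and far from early log 1 and 2, the difference over it was -0.28 and it did not hold. TIF4631, one of the genes of the eIF4G scaffold, had 277, 260.2 and 84.2 CPM in early and 35.6, 33.8 and 33.7 CPM in late log and did hold (-1.29 over early log 3).

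**Figure D2:**
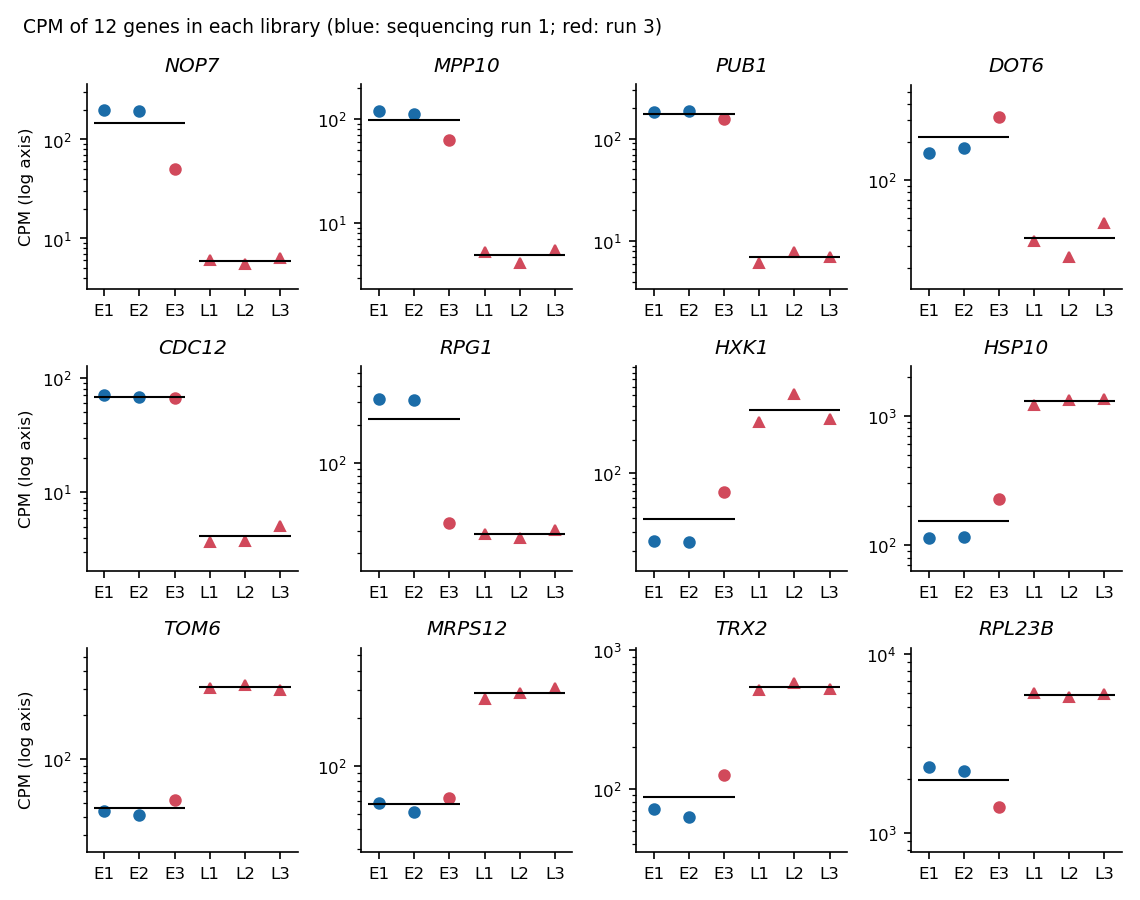
CPM (log axis) of 12 genes in early log 1 to 3 (E1 to E3, circles) and late log 1 to 3 (L1 to L3, triangles); blue points come from sequencing run 1 and red points from run 3, and black lines are group means. Early log 3 lay with its replicates for PUB1 and CDC12, between the groups for NOP7 and HXK1, and next to late log for RPG1, at 34.5 CPM.

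Outside ribosome production, the largest falls by the fixed rule were in genes of varied function. SHE10, a gene linked to spore wall formation, had 91.8, 95.6 and 54.3 CPM in early log 1, 2 and 3 and 1.68, 1.46 and 1.27 CPM in late log 1, 2 and 3, the largest fall of all named genes (-5.78 ± 0.29). PUB1, an abundant RNA-binding protein of the nucleus and cytoplasm, had 184, 188 and 154 CPM in early and 6.06, 7.88 and 6.95 CPM in late log. Early log 3 lay near its replicates, and the value over it, -4.47, was close to the -4.65 of all 6 libraries. NPA3, a GTPase that helps RNA polymerase II assemble and enter the nucleus, had 28.9 to 80.4 CPM in early log and 1.997 to 2.71 CPM in late log (-4.65 ± 0.44). ANP1, a subunit of a Golgi mannosyltransferase, had 58.4 to 93.9 CPM in early log and 2.699 to 4.59 CPM in late log (-4.46 ± 0.28). RSC8, a subunit of the RSC chromatin remodeler, had 48.5 to 87.8 CPM in early log and 3.36 to 4.41 CPM in late log (-4.24 ± 0.28). For each of these 5 genes all late values lay below all early ones, and each was lower in all 4 fits.

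Genes that sense glucose and control its repression were mostly lower in late log. Of 15 tested, 13 were lower and 1 higher. All 13 falls held in early log 3, and 12 were lower in all 4 fits, 80% beside 20.2% of all genes. Their median was -1.39, -1.23 over early log 3 and -1.14 with the trends removed. In the fit that takes in the mid log libraries together with the run term, 2 of the 15 were lower, beside 12.1% of all genes. GLC7, the catalytic subunit of the protein phosphatase that opposes the Snf1 kinase, had 109.9, 99.8 and 80.97 CPM in early and 36.2, 24.6 and 31.8 CPM in late log, with groups apart (-1.65 ± 0.18). RGT1, the repressor of hexose transporter genes, had 37.3 to 46.97 CPM in early log and 26.1 to 27.4 CPM in late log (-0.62 ± 0.13). SNF4, the activating subunit of Snf1, was the member that rose, with 78.1, 83.7 and 92.9 CPM in early and 162, 161 and 153 CPM in late log (0.90 ± 0.11; 0.23 with the trends removed, where it did not pass). Among 21 kinases of nutrient signalling and their partners, 7 were lower (33.3%) and 3 higher (14.3%), beside 39.2% and 33.0% of all genes. With the trends removed that list had 5 lower and 7 higher, with a median of 0.10 (-0.19 with run as a term as well). YAK1, a kinase held back by protein kinase A, and SCH9, a target of TORC1, fell by 2.59-fold and 1.68-fold, and LST8, a TORC1 subunit, rose by 2.897-fold.

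Cell division genes were more often lower. Of 29 cyclins and cell cycle regulators, 21 were lower and 3 higher, with a median of -1.48. Of these, 19 falls held in early log 3 and 11 were lower in all 4 fits. CLN2, a G1 cyclin that drives entry into the cycle, had 91.5, 93.5 and 133 CPM in early and 19.3, 16.2 and 24.2 CPM in late log, with early log 3 the highest library (-2.41 ± 0.22; -2.74 over early log 3). FAR1, the inhibitor of G1 cyclin kinase complexes, moved the other way, with 42.5, 45.5 and 45.9 CPM in early and 126, 96.3 and 126 CPM in late log (1.38 ± 0.14), and its rise was larger with the trends removed (2.02). Of 15 septin and cytokinesis genes, 13 were lower and 1 higher. Septins assemble into 1 filament, yet their mRNAs split. CDC12 had 70.1, 67.2 and 66.7 CPM in early and 3.72, 3.78 and 5.07 CPM in late log (-4.02 ± 0.16). CDC11 had 61.9, 59.4 and 62.01 CPM in early and 9.99, 6.15 and 11.3 CPM in late log (-2.74 ± 0.22). CDC10 had 104, 116 and 111 CPM in early and 144, 146 and 131 CPM in late log (0.35 ± 0.10). The rise of CDC10 turned to -0.25 with library totals and was 0.08 with the trends removed. Of 47 DNA replication genes, 28 were lower and 8 higher, RFC3 of the clamp loader falling by 3.19-fold and RFA2 of the single-strand binding complex rising by 2.15-fold. With the trends removed the replication list had 18 lower and 12 higher, with a median of -0.23 beside -0.13 for all genes. The kinetochore and spindle list, with the highest median A content of those described (37.1%), had 17 of 30 genes lower and a median of -1.55, but -0.39 over early log 3 and 0.02 with the trends removed.

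Nuclear transport and mRNA metabolism leaned the same way. Of 32 nuclear pore genes, 24 were lower and 3 higher, of 27 mRNA decay genes 17 and 3, and of 43 splicing genes 31 and 4. With the trends removed, the splicing list had 14 lower and 11 higher. NUP100, a pore protein with FG repeats, had 91.3, 88.5 and 70.8 CPM in early and 15.3, 11.4 and 15.2 CPM in late log (-2.58 ± 0.17). LSM1, which joins the ring that starts decapping, had 60.4, 62.8 and 62.4 CPM in early and 10.95, 8.26 and 13.7 CPM in late log (-2.49 ± 0.19). LSM5 and LSM6, found in the same ring, were higher instead. LSM5 had 52.2 to 74.2 CPM in early log and 132 to 177 CPM in late log, and LSM6 had 23.4 to 47.1 CPM in early log and 72.04 to 86.4 CPM in late log. Neither passed with the trends removed (-0.17 and -0.27). Another annotated gene on the opposite strand overlaps LSM5 over 84.8% of its length, and whether the authors' counting used strand is not given in the sources used here.

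Phosphate and arginine genes were mixed. Of 20 phosphate genes, 11 were lower and 4 higher. PHO84, the high-affinity phosphate transporter, had 1286, 1374 and 601 CPM in early and 292, 244 and 287 CPM in late log, with early log 3 nearer to late log (-1.99 ± 0.31; -1.13 over early log 3), and an annotated antisense transcript covers its whole length. PHM8, a nucleotide phosphatase of the same regulon, had 158, 137 and 105 CPM in early and 14.7, 11.7 and 13.98 CPM in late log (-3.31 ± 0.19). GIT1, the transporter of glycerophosphoinositol, rose with 11.2, 12.8 and 17.4 CPM in early and 68.99, 75.6 and 62.6 CPM in late log (2.32 ± 0.19). Of 12 arginine genes, 6 were lower. ARG1, argininosuccinate synthase, had 485, 567 and 357 CPM in early and 142, 135 and 152 CPM in late log (-1.72 ± 0.18). ARG3, ornithine carbamoyltransferase, had 85.97, 95.7 and 33.5 CPM in early and 23.2, 14.95 and 22.98 CPM in late log, with early log 3 close to late log.

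Genes of sugar metabolism were more often higher in late log, a lean that depended on the fit for part of them. Of 19 glycolysis genes, 16 were higher and 1 lower, 15 of the rises held in early log 3, and the median log2 fold change was 1.59, or 0.96 over early log 3. These genes hold little A, 27.4% at the median, and with the trends removed 6 were higher and 0 lower, with a median of 0.59. With run as a term as well they were 4 and 3, with a median of 0.06, beside -0.16 for all genes. HXK1, the hexokinase made when glucose is scarce, had 24.5, 24.01 and 67.9 CPM in early log 1, 2 and 3 and 289, 510.4 and 309 CPM in late log 1, 2 and 3. Late log 2 was the highest and early log 3 lay between the groups, a log2 fold change of 3.25 ± 0.48 (edgeR adjusted p = 0.00076), the largest rise of all named genes, and one of 2.68 with the trends removed. TDH1, the minor glyceraldehyde-3-phosphate dehydrogenase gene, had 231, 192 and 350.0 CPM in early and 898, 1795 and 1133 CPM in late log, with late log 2 again the highest (2.31 ± 0.33). Of 17 genes of fermentation and glycerol, 10 were higher and 1 lower and 8 of the rises held, but the list had 3 higher and 6 lower with the trends removed (2 and 8 with run as a term as well). ADH1, which makes ethanol, had 4491, 4526 and 8991 CPM in early and 18572, 20471 and 19908 CPM in late log, so that early log 3 lay between the groups (1.71 ± 0.30), and with the trends removed it did not pass (edgeR adjusted p = 0.14). PDC5, a minor pyruvate decarboxylase, had 81.1, 92.6 and 28 CPM in early and 275, 198 and 283 CPM in late log, with early log 3 the lowest (3.17 over it). ALD6, which leads from acetaldehyde to acetate, fell with 570.1, 581 and 555 CPM in early and 311, 245 and 272 CPM in late log (-1.04 ± 0.12). All 10 called genes of 11 in the pentose phosphate pathway rose, 9 held, and 2 rose with the trends removed. TAL1, transaldolase, had 401, 424 and 426 CPM in early and 956, 984 and 960.3 CPM in late log, with early log 3 level with its replicates (1.21 ± 0.10). For ZWF1, the first enzyme of the pathway, early log 3 stood well above its replicates, at 225 against 83.1 and 91.2 CPM.

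The family of hexose transporters was mixed: 6 of 13 tested were higher and 1 lower. Of these, 4 rises and no fall held in early log 3, and there were 2 higher and 2 lower with the trends removed. The summed level of the family was 4452, 4408 and 1335 CPM in early log 1, 2 and 3 and 4182, 4739 and 3881 CPM in late log 1, 2 and 3, so early log 3 lay far below all other libraries. HXT6 and HXT7, transporters of high affinity, are 99.8% identical over 1713 bases, so reads can be shared between or lost from both, and their single values are uncertain. HXT7 had 91.3, 90.5 and 80.1 CPM in early and 304, 473 and 332 CPM in late log (2.08 ± 0.19). HXT6 had 7.08, 6.85 and 10.7 CPM in early and 34.5, 113 and 47.4 CPM in late log (2.99 ± 0.47), with late log 2 the highest library for each. Reserve carbohydrate genes rose less evenly: of 21 genes of trehalose and glycogen, 9 were higher and 5 lower, 4 of the rises held in early log 3, and the median fell from 0.52 to 0.06 over that library and to -0.10 with library totals. GPH1, glycogen phosphorylase, had 21.3, 19.3 and 54.8 CPM in early and 141, 234 and 142 CPM in late log (2.43 ± 0.45). PGM2, the main phosphoglucomutase, had 15.5, 15.2 and 31.1 CPM in early and 63.8, 116 and 55.96 CPM in late log (1.93 ± 0.38). Both also rose with the trends removed (2.38 and 1.36). HAP4, the activating subunit of the complex that turns on respiration genes, fell, with 93.5, 78.1 and 90.2 CPM in early and 22.8, 27.6 and 24.03 CPM in late log (-1.81 ± 0.13).

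Nuclear genes of mitochondria rose in large part. Of 39 nuclear genes of the respiratory chain and ATP synthase, 29 were higher and 3 lower, 28 of the rises held in early log 3, and the medians over early log 1 and 2 and over early log 3 were alike, 0.98 and 0.98. They are short, 462 bases at the median beside 1236 for all genes, and with the trends removed 6 were higher and 11 lower. The CCAAT box, bound by the Hap complex and searched as CCAAT on both strands, stood in 84.6% of their promoters against 44.0% of all promoters. ATP15, the smallest subunit of the catalytic part of ATP synthase, had 116, 113 and 102 CPM in early and 496, 525 and 457 CPM in late log (2.16 ± 0.11). QCR6, a complex III subunit, had 115, 89.7 and 77.6 CPM in early and 38.2, 32.4 and 46.3 CPM in late log and fell (-1.27 ± 0.19). NDE1, the NADH dehydrogenase facing the cytosol, also fell, with 926, 966 and 751 CPM in early and 475, 391 and 380.1 CPM in late log (-1.08 ± 0.15). Of 31 import genes, 19 were higher and 9 lower, with a median of 1.01. With the trends removed 10 were higher and 6 lower (10 and 7 with run as a term as well, with a median of 0.02). The outer membrane translocase was split. TOM6 had 44.3, 41.1 and 52.1 CPM in early and 305, 323 and 299 CPM in late log and rose by 6.75-fold. TOM5 had 25.7, 26.04 and 37.1 CPM in early and 196, 225 and 199.96 CPM in late log and rose by 6.99-fold. The receptor gene TOM70 had 113, 116 and 83.9 CPM in early and 9.27, 9.99 and 9.79 CPM in late log and fell by 10.8-fold. All 3 kept their direction in all 4 fits. HSP10, the lid of the mitochondrial chaperonin, had 113, 116 and 227 CPM in early and 1206, 1318 and 1350.4 CPM in late log, the second largest rise of the named genes (3.09 ± 0.30). COA3, an assembly factor of cytochrome c oxidase, had 21.1, 20.3 and 32.1 CPM in early and 173, 191 and 205 CPM in late log (2.95 ± 0.21).

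Mitochondrial ribosomal protein genes had the highest share of genes higher in all 4 fits among the lists described, 26 of 73 or 35.6% beside 10.3% of all genes. In the fit of 6 libraries 36 were higher and 18 lower, with a median of 0.52 (-0.08 with library totals), and their median A content was 34.5%, in a range where more genes fell than rose. With the trends removed, 39 were higher and 10 lower, with a median of 0.70 (32 and 15, and 0.31, with run as a term as well). MRPS12 had 58.5, 51.3 and 62.5 CPM in early and 266, 289 and 311 CPM in late log, with early log 3 close to its replicates and a log2 fold change of 2.33 ± 0.13. IMG1 had 23.6, 19.4 and 50.96 CPM in early and 165, 171 and 212 CPM in late log, with early log 3 above them (2.54 ± 0.37). Of 13 citric acid cycle genes, 8 were higher and 5 of these held, with a median of 0.47 (-0.12 with library totals). None of them was called higher once the trends were taken out: the list had 0 higher and 1 lower with the trends removed (0 and 4 with run as a term as well).

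**Figure D3:**
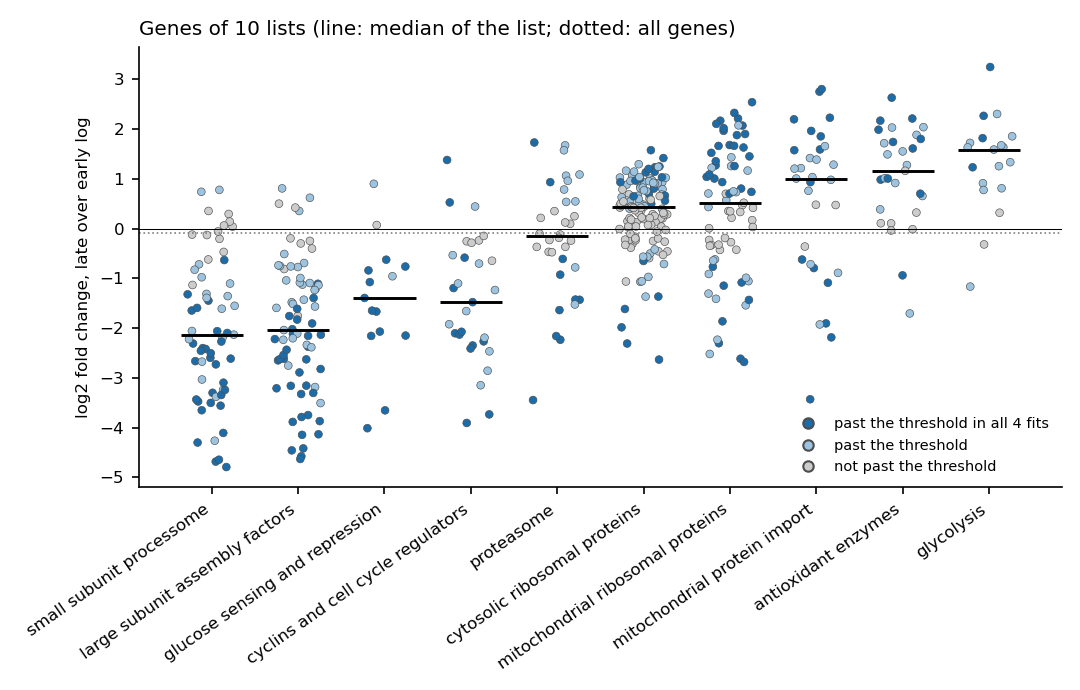
log2 fold change of late over early log for each tested gene of 10 lists (points; dark blue, past the threshold in all 4 fits; light blue, past it in the fit of 6 libraries; grey, not past it), with the list median as a black line and the median of all genes dotted. Assembly factors centre on -2.13 and -2.03, glycolysis on 1.59, and the proteasome, mitochondrial import and both ribosomal protein lists spread to either side of 0.

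Defence against oxidants rose and general stress genes less so. Of 29 antioxidant genes, 21 were higher and 2 lower. All 21 rises held in early log 3, and 10 were higher in all 4 fits. With the trends removed 14 were higher and 3 lower (12 and 7 with run as a term as well). Their median was 1.16, or 1.71 over early log 1 and 2 and 0.71 over early log 3. TRX2, a cytosolic thioredoxin, had 72.1, 62.9 and 127 CPM in early and 517, 582 and 525 CPM in late log (2.63 ± 0.27). TRX1, also a cytosolic thioredoxin, had 192, 196 and 206 CPM in early and 908, 944 and 906 CPM in late log, with early log 3 level with its replicates (2.21 ± 0.11). YAP1, the activator of many of these genes, fell, with 49.2, 47.7 and 58.5 CPM in early and 14.7, 15.6 and 17.3 CPM in late log (-1.71 ± 0.14; -0.23 with the trends removed, where it did not pass). Of 30 general stress genes, 16 were higher and 5 lower, 11 of the rises held, and the median was 0.79, or 1.05 over early log 1 and 2 and 0.33 over early log 3. The lean of this list also depends on the fit, with 7 higher and 7 lower with the trends removed (4 and 15 with run as a term as well). MSN4, an activator of that program, had 91.9, 90.7 and 94.3 CPM in early and 22.8, 30.8 and 27.7 CPM in late log and fell by 3.41-fold. The stress response element, searched as AGGGG on both strands, stood in 56.7% of their promoters against 21.9% of all. Of 28 heat shock chaperone genes, 5 were higher and 8 lower, but with run as a term 17 were lower. Early log 3 was the highest library for HSP104 and SSE1. HSP104, the disaggregase, had 298, 258 and 402 CPM in early and 105, 118 and 111 CPM in late log. SSE1, an exchange factor of Hsp70, had 528, 545 and 896 CPM in early and 269.6, 190.0 and 325 CPM in late log. HSP26, a small heat shock protein, went the other way, with 13.7, 13.5 and 25.9 CPM in early and 105, 122 and 119 CPM in late log, and rose by 6.51-fold.

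Biosynthetic lists rose in part. Of 25 genes of sulfate assimilation and methionine, 14 were higher, 13 of which held, and 3 lower, against 6 higher and 3 lower with the trends removed (4 and 10 with run as a term as well). MET17, which builds homocysteine, had 116, 147 and 481 CPM in early and 1139, 1181 and 1075 CPM in late log, with early log 3 between the groups (2.19 ± 0.52). Of 21 purine and one-carbon genes, 12 were higher and 1 lower, with a median of 0.43 (-0.16 with library totals), against 5 higher and 6 lower with the trends removed. SHM2, the cytosolic serine hydroxymethyltransferase, rose, with 71, 74.02 and 131 CPM in early and 446, 406 and 463 CPM in late log (2.25 ± 0.25). Of 9 pyrimidine genes, 8 were higher, none lower, and 7 held, with a median of 0.76, against 3 higher and 2 lower with the trends removed. Among transporters of amino acids and nitrogen, 12 of 28 were higher and none lower, with a median of 0.48 (-0.11 with library totals) and a median A content of 25.7%, but with the trends removed 2 were higher and 11 lower. MEP2, an ammonium transporter made when nitrogen is poor, had 96.8, 97.3 and 266 CPM in early and 599.8, 790.5 and 616 CPM in late log, with early log 3 between the groups (2.12 ± 0.42). OPT2, of the oligopeptide transporter family, had 20.5, 23.04 and 34 CPM in early and 106, 148 and 109.8 CPM in late log and was higher in all 4 fits. BAT2, the cytosolic branched-chain aminotransferase, had 40.7, 41.4 and 105 CPM in early and 330.0, 358 and 356 CPM in late log (2.48 ± 0.38).

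Lipid, vacuole and cell wall genes gave smaller or mixed lists. OPI3, the methyltransferase that completes phosphatidylcholine, had 49.6, 46.6 and 107 CPM in early and 471, 571 and 564 CPM in late log (2.98 ± 0.34). CHO1, phosphatidylserine synthase, had 101, 105 and 140.4 CPM in early and 441, 487 and 438 CPM in late log (1.98 ± 0.16). They stand in a list of 23 phospholipid genes of which 12 were higher and 6 lower, the median being 0.44 (-0.15 with library totals), and 6 higher and 7 lower with the trends removed. Of 12 fatty acid synthesis genes 9 were higher and all of these held, among them ELO1, an elongase (1.41 ± 0.12), and OLE1, the desaturase, with 1378, 1485 and 941 CPM in early and 2443, 3033 and 2371 CPM in late log. With the trends removed 2 genes of the list were higher and 3 lower, with a median of -0.06. Of 20 genes of vacuolar proteases and the vacuolar H+-ATPase, 13 were higher and 3 lower, with 5 higher and 4 lower with the trends removed, and the pump itself was split. VMA2 had 285, 313 and 567 CPM in early and 1076, 1188 and 1058 CPM in late log. VMA10 had 119, 92.4 and 52.3 CPM in early and 26.2, 21.9 and 23.8 CPM in late log. The proteasome was split as well, 10 genes higher and 10 lower of 34, but it leaned downward with run as a term, at 9 and 17, and had 6 higher and 12 lower with the trends removed (4 and 18 with run as a term as well). PRE3, a catalytic core subunit, had 86.3, 82.8 and 130.5 CPM in early and 333, 337 and 325 CPM in late log (1.73 ± 0.19). RPN5, of the lid, had 93.2, 93.3 and 85.5 CPM in early and 8.36, 7.67 and 8.87 CPM in late log (-3.45 ± 0.12). Each of these proteasome genes kept its direction in all 4 fits. Of 30 cell wall genes, 17 were higher and 4 lower, with a median of 0.49 (-0.10 with library totals), but the list had 5 higher and 12 lower with the trends removed (3 and 16 with run as a term as well). TIP1, a mannoprotein, had 199, 198 and 197 CPM in early and 862, 1182 and 1016 CPM in late log (2.36 ± 0.15). SED1, an abundant mannoprotein of stationary cells, had 3341, 3506 and 4301 CPM in early and 503, 718 and 717 CPM in late log and fell by 5.75-fold. For iron, copper and zinc, 14 of 37 genes were lower and 6 of these held in early log 3, against 11 of 11 rises. The list as a whole had 1 higher and 20 lower with the trends removed (1 and 17 with run as a term as well), and 1 gene was higher in all 4 fits. FRE4, a ferric reductase, had 77.3, 93.1 and 13.9 CPM in early and 12.5, 9.18 and 9.22 CPM in late log, so that early log 3 was next to late log. CTR1, the copper transporter, had 147, 152 and 156 CPM in early and 27.3, 16.1 and 29.7 CPM in late log and held (-2.68 over early log 3).

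Histone genes rose: 8 of 10 were higher, 8 held, and 1 was lower. HTA1, an H2A gene, had 918, 866 and 890.0 CPM in early and 2676, 2776 and 2839.7 CPM in late log (1.63 ± 0.11). HTZ1, the H2A variant, had 74.2, 67.6 and 65.4 CPM in early and 153, 157 and 161 CPM in late log (1.18 ± 0.10). HTB1, an H2B gene, did not pass (0.02 ± 0.16). HHO1, the linker histone, fell, with 32.7, 31.7 and 35.1 CPM in early and 14.7, 16.5 and 16.3 CPM in late log (-1.07 ± 0.12). HHF1 and HHF2 are 97.4% identical over 312 bases, so that their values cannot be fully separated. After the trends were removed, 2 histone genes were higher and 4 lower.

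Markers of mating type were read in every library, and the a-cell genes STE2, BAR1, AGA2 and ASG7 are not shown. Of 19 genes of a cells and the mating pathway, 6 were higher (31.6%) and 10 lower (52.6%), beside 33.0% and 39.2% of all genes, with a median of -0.35. With the trends removed that list had 7 higher and 5 lower, with a median of 0.16 (0.04 with run as a term as well). MFA1 and MFA2, the a-factor genes made by a cells, rose. MFA1 had 28.5, 22.2 and 44.99 CPM in early and 289.6, 268 and 247 CPM in late log (3.07 ± 0.27). MFA2 had 167, 151 and 131 CPM in early and 893, 913 and 845 CPM in late log (2.56 ± 0.13). GPA1, the G protein subunit of the pheromone pathway, and STE6, the exporter of a-factor, fell by 2.87-fold and 2.08-fold, with 115 to 187 CPM in early log and 55.4 to 86.5 CPM in late log for STE6. Among the 4 alpha-cell genes, MF(ALPHA)1 had 0.3898 to 0.975 CPM in early log and 1.48 to 2.01 CPM in late log and MF(ALPHA)2 had 0.177 to 0.3298 CPM in early log and 0.255 to 0.655 CPM in late log. STE3 had 2.48 to 3.42 CPM in early log and 1.62 to 1.99 CPM in late log, and SAG1, the alpha-agglutinin gene, had 18.6 to 27.6 CPM in early log and 29.2 to 30.8 CPM in late log. Of these, MF(ALPHA)1 passed the test upward and STE3 downward, and neither held in early log 3. Of 17 tested genes of meiosis and sporulation, 2 were higher and 4 lower, with summed levels of 52.4 to 54.8 CPM in early log and 38.9 to 43.7 CPM in late log. MFA2 and STE6 were above each of the 4 alpha-cell genes in every library, and MFA1 was near SAG1 in early log 1 and 2.

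Annotation terms of the reference genome were ranked by their median as well. Among 582 annotation terms with at least 10 tested genes, the highest median belonged to glycolytic process (16 genes, 15 higher, none lower, median 1.64), followed by cell redox homeostasis (1.55), insertion into the mitochondrial inner membrane (1.25) and ubiquinone biosynthesis (1.20). The lowest belonged to rRNA binding (13 genes, 12 lower, none higher, median -2.89), followed by sequence-specific binding of cis-regulatory DNA (-2.55), nucleoplasm (-2.42) and export of the small ribosomal subunit (-2.38). The term for RNA polymerase II transcription repressors had 17 genes, all lower, 16 of which held in early log 3. The ranking used fold changes with the length and A content trends still in place, and no ranking was made with them removed. These terms overlap with each other and with the lists, so they are not independent support.

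The lists differed in how far their medians moved between the early libraries. Nearly all changes of glucose sensing, the control factors of ribosome genes, antioxidant enzymes, respiration and mitochondrial import held in early log 3. Over all genes, 86.7% of rises and 89.4% of falls held as well, so holding did not set these lists apart. Most of their medians came closer to 0. For glucose sensing the median was -1.50 over early log 1 and 2 and -1.23 over early log 3, and for respiration the values were 0.98 and 0.98. The control factors went from -2.06 to -1.37, antioxidant enzymes from 1.71 to 0.71 and import from 1.26 to 0.66. Assembly factors likewise kept their direction with smaller medians. Reserve carbohydrates and general stress genes came down to 0.06 and 0.33, beside -0.09 for all genes, while the median of ribosomal protein genes was higher over early log 3 than over early log 1 and 2. Heat shock chaperones (0.19 over early log 1 and 2, -0.53 over early log 3) and the metal genes (-0.33 and 0.39) changed sign between the early libraries. Whether run, culture density or another difference between these libraries lies behind this cannot be told apart. The study reports that the early log sample at the upper limit of its range deviated from its replicates. Here early log 3 was the early library that stood apart, but the labels do not tie that sample's letter to a replicate number.

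**Figure D4:**
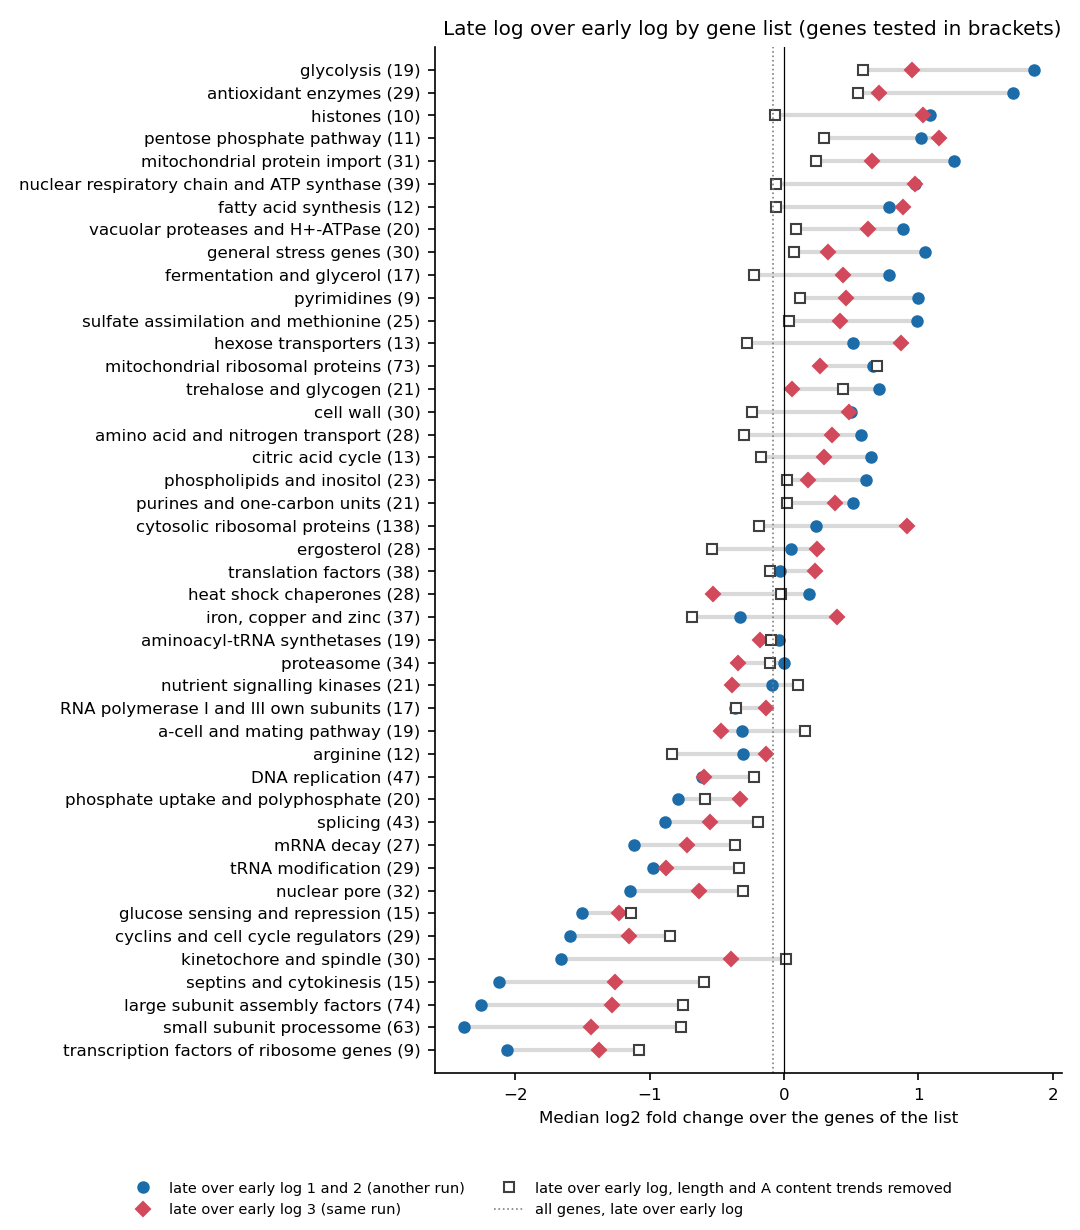
Median log2 fold change of each gene list compared, over early log 1 and 2 from another sequencing run (blue circles), over early log 3 from the same run (red diamonds) and with the length and A content trends removed (open squares); the dotted line is the median of all genes in the fit of 6 libraries, -0.08, and numbers in brackets are genes tested. Glycolysis runs from 1.86 over early log 1 and 2 to 0.59 with the trends removed, and the small subunit processome from -2.38 to -0.76.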

How the data were processed

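Poly(A)-selected mRNA was sequenced from a directional library kit. The authors checked reads with FastQC 0.11.9, aligned them with STAR and counted them per gene with HTSeq, version 0.12.3 in the submitters' processing notes and another version in the study's methods. The deposited files hold raw counts for 7127 genes, without normalization. The strand setting of the counting is not given in the sources used here. Lines that name no gene were left out of library sizes and tests, and reads on no feature were 8.74% to 10.7% of each library's total.

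The 6 libraries were fitted with edgeR 4.0.16 in R 4.3.3, by the quasi-likelihood test after its low-count filter and TMM normalization, with Benjamini-Hochberg adjustment at 0.05, and again with the sequencing run as a term. CPM are counts scaled to TMM-adjusted library sizes. The scripts were tested on simulated data with 200 genes changed, as many up as down and with no run effect. That setting cannot check TMM or the run term where most genes are called. Promoters, gene sequences and names came from the RefSeq annotation of build R64, in which 6047 of the 7127 genes had coordinates. Genes were matched to near-identical copies with blastn 2.17.0. Alternatives were DESeq2 1.42.0 and its size factors, library totals, other filters, all 9 libraries, run 3 alone, a replicate block, removal of GC or length trends, protein-coding genes alone and each library left out. Removal of A content trends (loess span 0.3), alone or with length, was chosen after seeing the data. In that step genes without coordinates kept their values.

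Named genes passed the test, had all 3 late libraries on the same side of all 3 early ones, a mean log2 CPM of at least 5 and a gene name. The 10 with the largest rise and the 10 with the largest fall were chosen from, with up to 2 per direction from each list. Beside them stand ACT1, RPA135, some of the cell type markers and members of lists of at most 10 genes. The members and the 59 gene lists were chosen with earlier results of these data known. The replicates are labelled as biological, and p-values measure the spread between these libraries.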

Additional observations from a re-analysis of the deposited data

How the results depend on the processing

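Counts of genes higher or lower stayed within 1.5 times of 1963 and 2331, and of 1931 and 2316 with run as a term, under the alternatives run except the following. Library totals gave 839 higher, and 801 higher and 3532 lower with run as a term. A fit of all 9 libraries with the run term gave 724 higher and 728 lower. In that fit 2 of 15 glucose sensing genes, 2 of 9 control factors, 4 of 29 cyclins and regulators and 3 of 15 septin and cytokinesis genes were lower. For the small subunit processome it was 20 of 63, and for large subunit assembly factors 25 of 74. With the A content trend removed 1285 genes were higher, and with length and A content trends removed 1224, or 1172 with run as a term. Leaving out each library gave 1693 to 2291 higher and 2123 to 2523 lower, and with run as a term, where early log 3 cannot be left out, each of the other 5 gave 1846 to 2106 higher and 2166 to 2486 lower. With a replicate block 1919 genes were higher and 2291 lower. Same-numbered libraries correlated at 0.19, -0.03 and 0.04 in their deviations, so the numbers were not taken to pair cultures.

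Signs of single genes turned as follows, as log2 fold changes, and the cause was not tested. With library totals CDC10 came to -0.25 and HTB1 to -0.58, and with library totals and run as a term together CDC10 came to -0.32, DBP2 to -0.013, RPA135 to -0.12, SAG1 to -0.54 and THS1 to -0.10. With run as a term HTB1 came to -0.28. With the A content trend removed ACT1 came to -0.16, DBP2 to -0.22, RPA135 to -0.58, SAG1 to -0.43 and SNU13 to -0.20. With the length trend removed HTB1 came to -0.94, LSM6 to -0.26, RPA12 to -0.17 and SNU13 to -0.26. With both trends removed CRF1 came to 0.86, EMG1 to -0.14, HTB1 to -0.79, HTZ1 to -0.072, LSM5 to -0.17, LSM6 to -0.27, RPA12 to -0.49, RPA14 to -0.024 and SNU13 to -0.67. With both trends removed and run as a term ACT1 came to -0.017, ADH1 to -0.034, CRF1 to 0.79, EMG1 to -0.13, GPA1 to 0.13, RPA12 to -0.10, RPA14 to -0.13, RPG1 to 0.45, SAG1 to -0.33 and SNU13 to -0.31.

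Early log 3 alone joins the runs, so the fit with run as a term rests on that library.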
